A study of Homo sapiens with 15 samples.

Results

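The BMP pathway was followed through 10 genes in BEAS-2B cells: the ligands BMP2 and BMP4, the receptors BMPR1A and BMPR2, the secreted antagonists GREM1, CHRDL1 and FST, and the target genes ID1, ID2 and ID3. They were chosen by name, with earlier results of these data known, and matched through the Entrez gene numbers of the count table. All 10 were found among its 28395 genes. Of the 16740 genes with enough reads to be tested, 9 were among them; BMP2 was too weakly expressed. BEAS-2B is a virus-immortalised line of human bronchial epithelial cells, so all samples derive from 1 line. The exposed cultures received nanoplastics of polyethylene terephthalate (PET-NPLs, made from water bottles) at 50 µg/mL, renewed with the medium, and the controls were unexposed cells of matched passage. RNA was sequenced from 2 control and 2 exposed samples at 24 h, 2 and 2 at 15 weeks, and 3 and 4 at 30 weeks. The 24 h and 15-week samples form batch 1 and the 30-week samples batch 2, so exposed and control cells were compared within a batch, while 30 weeks of culture and batch 2 cannot be told apart. The labels do not say whether replicates came from separate cultures, so p-values measure the spread between these samples, which may be technical.

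Bone morphogenetic proteins (BMPs) are secreted ligands of the TGF-beta family that bring together type I receptors such as BMPR1A and type II receptors such as BMPR2. The receptors phosphorylate SMAD1, SMAD5 and SMAD9, which enter the nucleus with SMAD4 and switch on target genes, among them the ID genes and the inhibitory SMADs. Gremlin 1 and chordin-like 1 bind BMPs outside the cell and keep them from their receptors, while follistatin mainly binds activins and some BMPs. ID proteins lack a DNA-binding region and hold bHLH transcription factors in inactive pairs. In the lung the pathway takes part in branching and in the repair of the airway epithelium.

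Each sample held between 23143202 and 31459990 counts, and levels are given in CPM, read counts relative to the scaled size of the library, in which 1 CPM stood for 23.3 to 33.9 reads. The 30-week samples differed from the others in composition. A set of 6 small noncoding RNAs, chosen by name, took 9.75% to 12.9% of the counts in the earlier samples. They took 22.3% to 31.03% in the 30-week controls and 17.0% to 21.5% in the 30-week exposed cells. Exposed replicate 2 at 30 weeks stood apart, with Pearson correlations of 0.976 to 0.981 with the other exposed samples. The markers of the labelled cell type were mixed: KRT8 and KRT18, keratins of simple epithelia, averaged at least 149.9 and 194.5 CPM in every group, whereas EPCAM and CDH1, surface proteins of epithelia, stayed under 1 CPM and KRT5 and NKX2-1 were at 0 from 15 weeks on. KRT7, another such keratin, averaged 1315 CPM in controls and 1376 CPM in exposed cells at 24 h. Its means were 18.0 and 5.84 CPM at 15 weeks, and 1.93 and 1.92 CPM at 30 weeks. VIM, a filament gene of mesenchymal cells, averaged 1035 to 1604 CPM over the groups. The other listed mesenchymal markers split at 30 weeks. SNAI2 averaged 26.1 CPM in controls and 2.70 CPM in exposed cells, and ZEB1 28.7 and 13.4 CPM. FN1 (115 and 546 CPM) and CDH2 (81.0 and 181 CPM) went the other way.

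At 30 weeks 6 of the 9 tested genes differed between exposed and control cells. CHRDL1 was 17.9-fold and BMPR2 1.38-fold as high in exposed cells as in controls. ID2 was lower by 2.41, ID1 by 1.09, FST by 1.04 and ID3 by 0.84 on the log2 scale. BMP4, BMPR1A and GREM1 did not pass the test. By the same test, edgeR's quasi-likelihood test with Benjamini-Hochberg adjustment over all genes and a threshold of 0.05, 23.7% of all genes tested were called at 30 weeks, 12% as higher and 11.7% as lower. At 24 h and 15 weeks 0% of the genes were called, and none of the 9 members was.

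**Figure D1:**
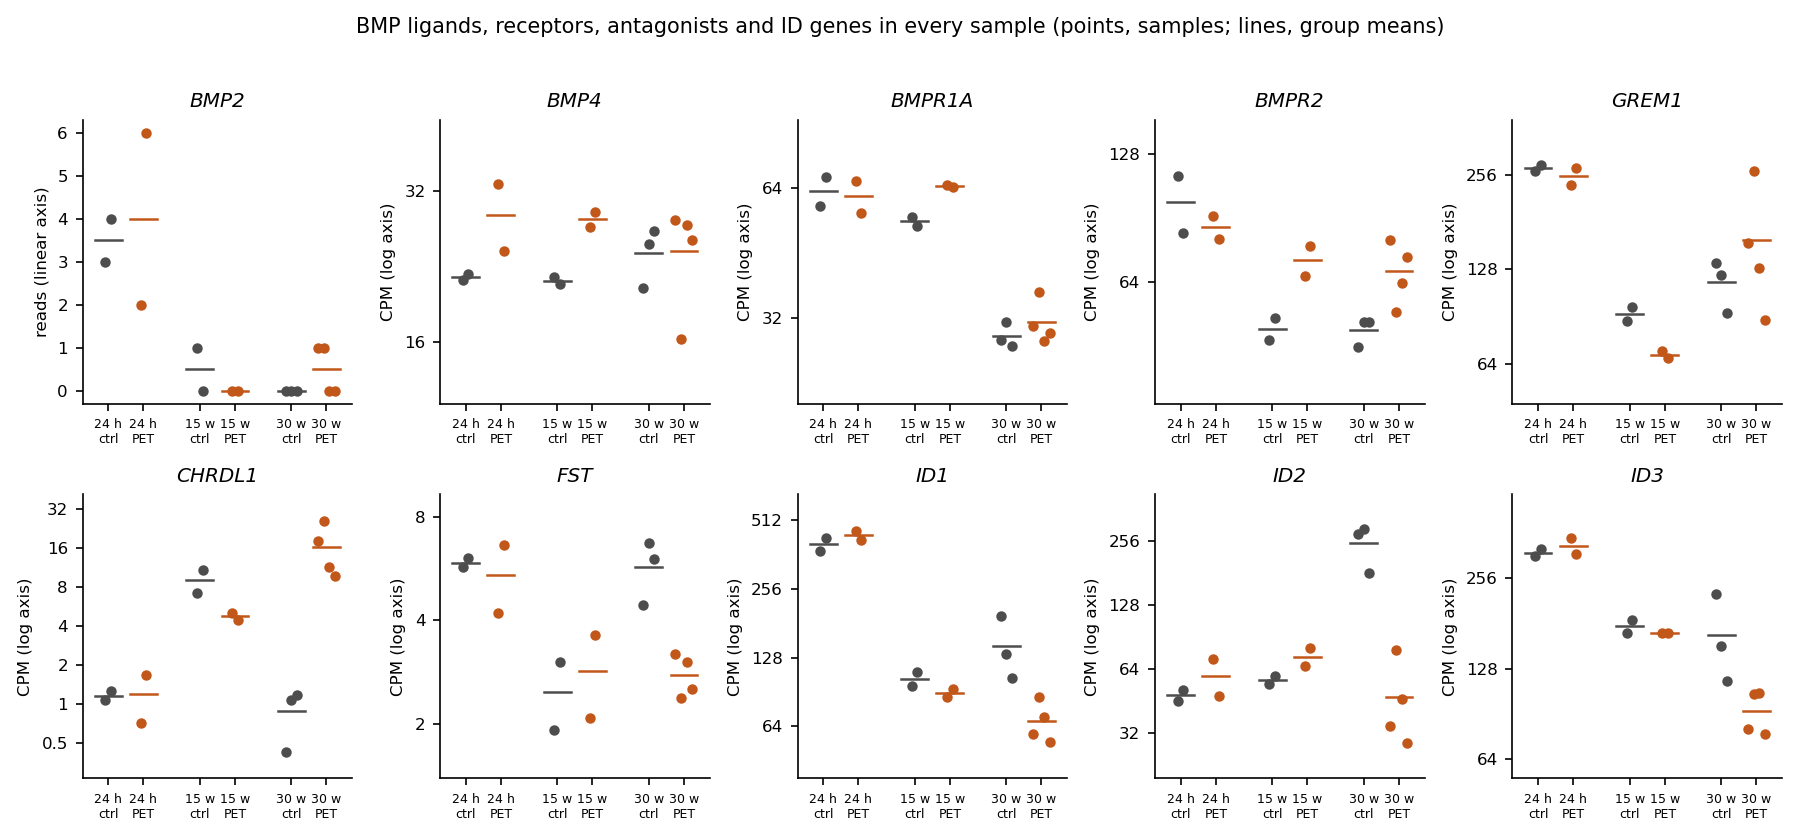
Level of each of the 10 genes in every sample: reads on a linear axis for BMP2, CPM on a log axis for the rest, with points for samples, short lines for group means, grey for controls and orange for cells exposed to PET-NPLs. The 30-week controls and exposed samples are separate for BMPR2, CHRDL1, FST, ID1, ID2 and ID3. ID1 and ID3 are highest at 24 h, and GREM1 has its highest group means there.

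The levels of the members spanned a wide range. Divided by the length of the exons in GENCODE v44, ID1 stood at 325 ± 29.3 CPM per kb (SD, n = 2) in the 24 h controls. ID3 followed at 208 ± 8.42, ID2 at 21.8 ± 1.94 and GREM1 at 18.2 ± 0.573 CPM per kb. BMPR2 (7.88 ± 1.69), BMP4 (6.97 ± 0.145) and BMPR1A (6.25 ± 0.670) came next and did not differ from one another beyond their spread. FST at 2.14 ± 0.0868 and CHRDL1 at 0.298 ± 0.0335 CPM per kb were the lowest of the tested members. The order differed later: in the 30-week controls ID1 (117 ± 37.5), ID2 (113 ± 27.0) and ID3 (110 ± 37.4 CPM per kb, n = 3) could not be ordered, and in the 30-week exposed cells ID3 (61.8 ± 10.4) and ID1 (54.9 ± 11.1) lay above ID2 (21.3 ± 10.1 CPM per kb, n = 4).

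BMP2 (GRCh38 20:6767686-6780246) was at the edge of detection. It had 3 and 4 reads in the 24 h controls and 2 and 6 reads in the 24 h exposed cells. Later it had 1 and 0 reads in the 15-week controls, 0 in both exposed samples at 15 weeks, 0 in all 3 controls at 30 weeks, and 1, 1, 0 and 0 reads in the exposed cells. No comparison was made, since a count of 0 allows up to 3 reads per library.

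BMP4 (14:53949736-53956891), the other ligand, was expressed throughout. Its level was 21.3 and 21.9 CPM in the 24 h controls, and 33.0 and 24.3 CPM in the exposed cells. At 15 weeks it was 21.5 and 20.9 CPM in the controls and 27.1 and 29.1 CPM in the exposed cells. The exposed samples were above the controls at both times, with a log2 fold change of 0.41 at each (95% interval -0.07 to 0.88 at 24 h and -0.06 to 0.88 at 15 weeks) that did not pass the test (edgeR adjusted p = 1 for both). At 30 weeks the controls had 20.5, 25.1 and 26.6 CPM and the exposed cells 28.1, 16.2, 27.4 and 25.6 CPM, so the groups overlapped. The log2 fold change there was 0.02 (95% interval -0.35 to 0.38, edgeR adjusted p = 0.964), and its sign turned with the setting. A long noncoding gene on the opposite strand covers 4091 bases of BMP4, and the strand setting of the counting is not given in the sources used here, so reads of both may be mixed.

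BMPR1A (10:86755763-86932844), the type I receptor, was lower at 30 weeks than earlier in both arms, and did not differ measurably with exposure. From 24 h to 15 weeks, within batch 1, it was not called in controls or in exposed cells (edgeR adjusted p = 0.299 and 0.764). It had 58.2 and 67.8 CPM in the 24 h controls, 66.5 and 56.0 CPM in the exposed cells, 54.9 and 52.4 CPM in the 15-week controls and 64.9 and 64.3 CPM in the exposed cells. At 30 weeks the controls had 28.4, 31.3 and 27.6 CPM and the exposed cells 30.6, 36.8, 28.3 and 29.5 CPM. All 7 samples at 30 weeks lay below all 8 earlier ones, by a log2 fold change against 15 weeks of -0.88 ± 0.14 in controls and -1.05 ± 0.13 in exposed cells (SE, edgeR adjusted p = 8.2e-05 and 1.95e-05), across the change of batch. The exposed-control change at 30 weeks was 0.11 on the log2 scale, with a 95% interval of -0.14 to 0.36.

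BMPR2 (2:202376327-202567749), the type II receptor, was higher in exposed cells at 30 weeks. The controls had 45.0, 51.3 and 51.5 CPM and the exposed cells 80.4, 54.4, 63.7 and 73.2 CPM, and each exposed sample was above each control. The log2 fold change was 0.46 ± 0.15 (SE, edgeR adjusted p = 0.0305). The call is near the threshold: it was lost in 7 of 18 alternatives, 4 of them without 1 sample (control 1, control 2, exposed 1 or exposed 4, with log2 fold changes from 0.37 to 0.55 over the samples left out). At 15 weeks the controls had 46.7 and 52.5 CPM and the exposed cells 66.1 and 78.0 CPM, a log2 fold change of 0.54 ± 0.19 (unadjusted p = 0.0116, edgeR adjusted p = 0.873). At 24 h the order was 113 and 83.7 CPM against 91.4 and 81.0 CPM, with overlap. The changes at 15 and 30 weeks differed by -0.08 (95% interval -0.58 to 0.43 on the log2 scale).

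CHRDL1 (X:110673856-110795817) gave the most marked change of the members. It had 0.430, 1.08 and 1.18 CPM in the 30-week controls, from 10, 30 and 33 reads. The 30-week exposed cells had 18.4, 26.2, 11.6 and 9.72 CPM, from 507, 747, 333 and 276 reads. The lowest exposed sample was thus several times above the highest control, and the log2 fold change was 4.16 ± 0.41 (SE, edgeR adjusted p = 1.6e-06), the 19th largest of the 2009 genes called as higher. Without exposed replicate 2, the highest of the exposed samples, it was 3.84.

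The direction had been the opposite at 15 weeks. The 15-week controls had 7.30 and 10.97 CPM of CHRDL1 and the exposed cells 5.12 and 4.48 CPM, a log2 fold change of -0.93 ± 0.42 (unadjusted p = 0.0429, edgeR adjusted p = 0.996) that was not called. At 24 h all 4 samples lay between 0.723 and 1.68 CPM. The change at 30 weeks minus that at 15 weeks was 5.09 ± 0.59 on the log2 scale (SE, edgeR adjusted p = 7.69e-05). In controls CHRDL1 rose by 2.97 on the log2 scale from 24 h to 15 weeks (edgeR adjusted p = 0.000314) and fell by 3.32 from 15 to 30 weeks (adjusted p = 1.78e-05), whereas in exposed cells it rose by 1.98 (adjusted p = 0.00764) and by a further 1.78 (adjusted p = 0.00162), so at 30 weeks the controls lay below, and the exposed cells above, their own 15-week levels.

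GREM1 (15:32718004-32745106) was the most abundant antagonist among the members. It had 263 and 275 CPM in the 24 h controls and 237 and 269 CPM in the exposed cells, and fell to 87.6 and 97.1 CPM in the 15-week controls and 70.2 and 66.9 CPM in the exposed cells. The log2 fold change from 24 h to 15 weeks was -1.54 ± 0.33 in controls and -1.88 ± 0.34 in exposed cells (SE, edgeR adjusted p = 0.00293 and 0.000626). At 30 weeks the controls had 134, 122 and 93.1 CPM and the exposed cells 155, 262, 129 and 88.5 CPM. The groups overlapped, with a log2 fold change of 0.45 ± 0.25 (SE, edgeR adjusted p = 0.221). Exposed replicate 2 sets much of that value, which was 0.09 without it, and without exposed replicate 4, the lowest, it was 0.65 and called. An antisense gene, GREM1-AS1, overlaps GREM1 over 1004 bases.

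FST (5:53480629-53487134) was lower in exposed cells than in controls at 30 weeks, in the opposite direction to CHRDL1. The controls had 4.43, 6.71 and 6.05 CPM and the exposed cells 3.19, 2.38, 3.02 and 2.53 CPM, without overlap. The log2 fold change was -1.04 ± 0.24 (SE, edgeR adjusted p = 0.00424). At 24 h the controls had 5.72 and 6.05 CPM and the exposed cells 4.21 and 6.63 CPM, and at 15 weeks 1.93 and 3.04 CPM against 2.08 and 3.63 CPM, with overlap at both times. From 15 to 30 weeks FST rose in controls by 1.21 on the log2 scale (edgeR adjusted p = 0.00273), while the exposed cells changed by -0.04 (95% interval -0.62 to 0.55). Follistatin binds activins, whose subunits INHBA and INHBB encode. INHBB was lower in the 30-week exposed cells as well, at 10.9, 9.32, 7.79 and 6.23 CPM against 24.7, 16.9 and 19.9 CPM (log2 fold change -1.26, edgeR adjusted p = 0.000719), and INHBA was not called, at means of 0.336 and 0.316 CPM in exposed and control cells (0.15, adjusted p = 0.89).

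The ID genes, the targets most used as a readout of BMP signalling, were lower in the exposed cells at 30 weeks without exception among the 3 members. Their promoters are shown because the 3 genes were all lower in exposed cells. Beside them stands that of SMAD6, a BMP target that was higher in exposed cells. Each line gives the 250 bases before the transcription start in RefSeq (GRCh38.p14), read 5′ to 3′ on the strand of the gene, and the capitals mark matches, on either strand, to CCAAT (the CCAAT box), the TATA box TATAAA, the GC element GGCGCC or the SMAD palindrome GTCTAGAC. The places are 20:31605039-31605288 (plus strand) for ID1, 2:8681806-8682055 (plus) for ID2, 1:23559502-23559751 (minus) for ID3 and 15:66701986-66702235 (plus) for SMAD6. The motifs were chosen after these windows had been seen.
ID1: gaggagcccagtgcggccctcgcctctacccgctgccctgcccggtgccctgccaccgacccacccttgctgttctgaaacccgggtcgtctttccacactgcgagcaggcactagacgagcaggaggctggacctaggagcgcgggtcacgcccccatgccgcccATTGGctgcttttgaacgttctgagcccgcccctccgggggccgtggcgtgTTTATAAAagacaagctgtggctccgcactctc
ID2: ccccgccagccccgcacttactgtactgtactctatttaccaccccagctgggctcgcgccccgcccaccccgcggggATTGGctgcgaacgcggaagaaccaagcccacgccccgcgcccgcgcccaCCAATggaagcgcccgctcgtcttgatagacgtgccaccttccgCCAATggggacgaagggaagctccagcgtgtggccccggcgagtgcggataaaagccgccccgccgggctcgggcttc
ID3: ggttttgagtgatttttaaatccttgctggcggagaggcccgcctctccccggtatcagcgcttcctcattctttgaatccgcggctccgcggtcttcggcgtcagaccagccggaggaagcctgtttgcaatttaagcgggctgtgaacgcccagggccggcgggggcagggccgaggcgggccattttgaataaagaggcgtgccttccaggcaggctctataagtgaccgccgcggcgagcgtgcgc
SMAD6: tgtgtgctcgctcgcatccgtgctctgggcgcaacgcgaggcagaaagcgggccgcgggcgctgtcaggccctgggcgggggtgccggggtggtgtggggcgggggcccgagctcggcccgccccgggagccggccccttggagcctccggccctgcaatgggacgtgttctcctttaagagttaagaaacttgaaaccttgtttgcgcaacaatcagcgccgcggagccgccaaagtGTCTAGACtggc
ID1 held CCAAT, on the reverse strand, beginning 84 bases before the start, and TATAAA on both strands at 33 and 31 bases, the 2 matches overlapping. ID2 held CCAAT 3 times, at 172, 122 and 78 bases, and ID3 held none of the 4 motifs. SMAD6 held the palindrome 12 bases before its start. Of the 35116 windows of that length, 32% held CCAAT, 10.7% TATAAA, 16.4% GGCGCC and 0.182% GTCTAGAC. GGCGCC was found in 3 of the 9 members with a window (BMP4, BMPR2 and GREM1) and in 10 of the 48 windows of the wider list below. A match is only a match of letters in this window.

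ID2 (2:8682056-8684461) showed the largest of the 3 changes. The 30-week controls had 277, 292 and 182 CPM and the exposed cells 34.6, 78.7, 46.6 and 28.7 CPM. The highest exposed sample, replicate 2, was below the lowest control, and the log2 fold change was -2.41 ± 0.27 (SE, edgeR adjusted p = 8.32e-06). Without exposed replicate 2 it was -2.77. At 24 h the controls had 45.2 and 51.3 CPM and the exposed cells 71.2 and 48.0 CPM, and at 15 weeks 54.7 and 59.6 CPM against 66.6 and 80.3 CPM. Neither was called, with log2 fold changes of 0.30 and 0.36 (95% intervals -0.45 to 1.05 and -0.39 to 1.11). The changes at 30 and 15 weeks differed by -2.77 ± 0.45 (SE, edgeR adjusted p = 0.00132).

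All 3 controls at 30 weeks had more ID2 than any other sample of the series. In controls it rose by 2.13 on the log2 scale from 15 to 30 weeks (edgeR adjusted p = 0.000121), from a mean of 57.2 to 250.2 CPM. In exposed cells the means were 73.4 and 47.2 CPM, a log2 fold change of -0.64 (edgeR adjusted p = 0.0919). These comparisons cross the batches and share samples with the exposed-control comparison at each time. The antisense gene ID2-AS1 overlaps ID2 over 3020 bases.

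ID1 (20:31605289-31606510) had 194, 133 and 104 CPM in the 30-week controls and 59.5, 85.7, 70.7 and 54.9 CPM in the exposed cells. The groups did not overlap, and the log2 fold change was -1.09 ± 0.19 (SE, edgeR adjusted p = 0.000482). At 24 h ID1 was several times higher, at 375 and 426 CPM in controls and 457 and 416 CPM in exposed cells. It had fallen by 15 weeks to 96.1 and 110 CPM in controls and to 86.2 and 93.4 CPM in exposed cells. That fall, -1.96 ± 0.25 in controls and -2.28 ± 0.25 in exposed cells (log2 fold change, SE, edgeR adjusted p = 3.2e-05 and 6.85e-06), lies within batch 1 and was seen in both arms. It was larger than the exposed-control change of -0.20 at 15 weeks (95% interval -0.72 to 0.32), which was not called. The changes at 30 and 15 weeks differed by -0.88 (edgeR adjusted p = 0.139), a difference that was called without 30-week control replicate 3 or without exposed replicate 2.

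ID3 (1:23557926-23559501) showed the smallest of the 3 changes. The 30-week controls had 226, 152 and 117 CPM and the exposed cells 80.8, 105, 106 and 77.5 CPM, so the highest exposed sample lay just under the lowest control. The log2 fold change was -0.84 ± 0.18 (SE, edgeR adjusted p = 0.00319), and -0.53 without control replicate 1, the highest of the controls, with the call kept. At 24 h the samples ran from 302 to 346 CPM and at 15 weeks from 167 to 186 CPM, with log2 fold changes between exposed and control cells of 0.07 and -0.08. Like ID1, ID3 fell from 24 h to 15 weeks in controls (-0.81, edgeR adjusted p = 0.0205) and in exposed cells (-0.96, adjusted p = 0.00725).

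**Figure D2:**
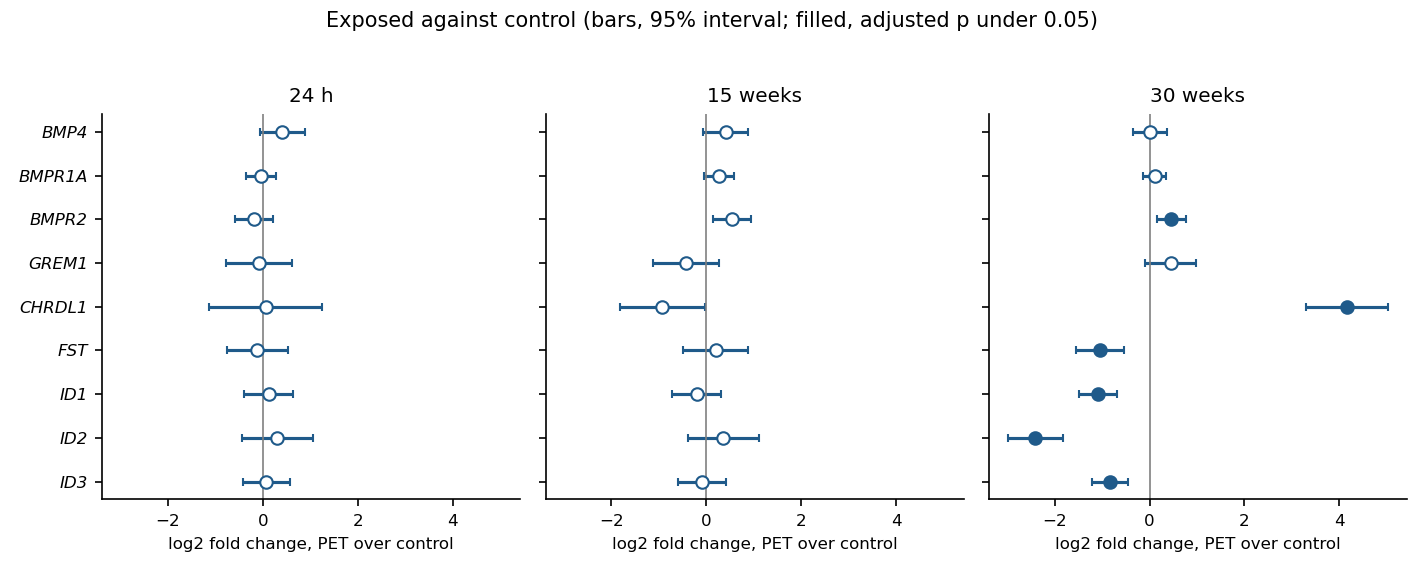
Log2 fold change of exposed over control cells for the 9 tested genes at 24 h, 15 weeks and 30 weeks, with 95% intervals as bars and filled points for adjusted p under 0.05. Filled points appear at 30 weeks alone, on both sides of 0: CHRDL1 at 4.16 and BMPR2 at 0.46 on the right, ID2 at -2.41, ID1, FST and ID3 on the left.

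At 24 h none of the 9 members was called and none had an unadjusted p under 0.05, as against 277 of the 16740 genes tested. At 15 weeks none was called and 2 of the 9, BMPR2 and CHRDL1, had an unadjusted p under 0.05, as against 823 of the 16740. DESeq2 and limma-voom called 0 members at either time. With the 15-week samples fitted alone, 3 members were called, BMPR2, GREM1 and CHRDL1, beside 1.96% of all genes in that fit.
At 30 weeks the 6 called members are the 6 whose groups do not overlap. Over all genes tested, 27.3% had groups that do not overlap. The median log2 fold change of the 9 members was 0.02, as against 0.01 over all genes. The 30-week change was called as different from the 15-week change in 2 members, CHRDL1 and ID2, and in 4.74% of all genes.

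The members also differed between the time points within each arm. From 24 h to 15 weeks, within batch 1, 6 of 9 members were called in controls (24.9% of all genes) and 5 in exposed cells (26%). Leaving out any 1 of the control samples of these times left 4 to 5 of the 6. Without exposed replicate 1 of either time the 5 became 3. GREM1, FST, ID1 and ID3 fell and CHRDL1 rose in both arms, and BMPR2 fell in controls from a mean of 98.6 to 49.6 CPM (log2 fold change -0.99 ± 0.19, SE, edgeR adjusted p = 0.00116). BMPR2 in exposed cells stood at -0.26 on the same scale (adjusted p = 0.351). From 15 to 30 weeks, across the batches, 4 members were called in controls (50.3% of all genes) and 4 in exposed cells (46%). Both arms shared a fall of BMPR1A and differed in sign for CHRDL1. These comparisons share their 15-week samples with those from 24 h.

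Markers of another cell type moved with the 30-week groups. The summed level of 13 skeletal muscle markers was 123 to 163.9 CPM in the 3 controls at 30 weeks, 3.62 to 5.29 CPM in the 4 exposed samples, and 4.79 to 10.9 CPM at the earlier times. Of the 13 genes 11 had at least 1 read in the 30-week controls, 6 averaged above 1 CPM, and MYF5 and MYF6 were at 0. In the 30-week exposed cells 9 had at least 1 read and 1 averaged above 1 CPM. Most of the control sum was MYOD1, a bHLH factor of muscle (means of 85.3 CPM in controls and 0.462 CPM in exposed cells), and CHRNA1 (47.7 and 0.131 CPM). MYH3 (3.16 and 3.49 CPM), ACTA1 (0.0839 and 0.107 CPM) and CKM (0.036 and 0.0534 CPM) were no higher in the controls. The summed level of 12 airway epithelium markers was 314 to 412 CPM in the 30-week controls and 880 to 1098 CPM in the exposed cells. That sum was nearly all KRT8 (means of 149.9 and 616 CPM) and KRT18 (194.5 and 338 CPM); every other gene of the list averaged under 3 CPM in both groups, and EPCAM (0.175 and 0.151 CPM) and CDH1 (0.620 and 0.565 CPM) were no higher in the exposed cells. These groups are the same as those in which the ID genes, FST, BMPR2 and CHRDL1 differed, and the part of the markers in the members' changes was not tested. In bulk RNA, fewer cells of a kind and less RNA per cell cannot be told apart.

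Another 59 genes of the pathway were listed by role, with earlier results of these data known, and 42 of them could be tested. At 30 weeks 17 were called (40.5%, beside 23.7% of all genes), 9 higher and 8 lower (12% and 11.7% of all genes). None was called at 15 weeks or at 24 h. An unadjusted p under 0.05 was found for 4 and 2 of the 42 at these times, beside 823 and 277 of the 16740 genes tested. The median log2 fold change of the 42 genes at 30 weeks was 0.07. The 12 with the largest changes are named below, with their roles. TLL1, a protease that cleaves chordin, was singled out after its values were seen: it had 0 reads in the 3 controls and 0, 78, 1 and 2 reads in the exposed cells at 30 weeks, so exposed replicate 2 holds nearly all of them, and it was not called (edgeR adjusted p = 0.0574).

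**Figure D3:**
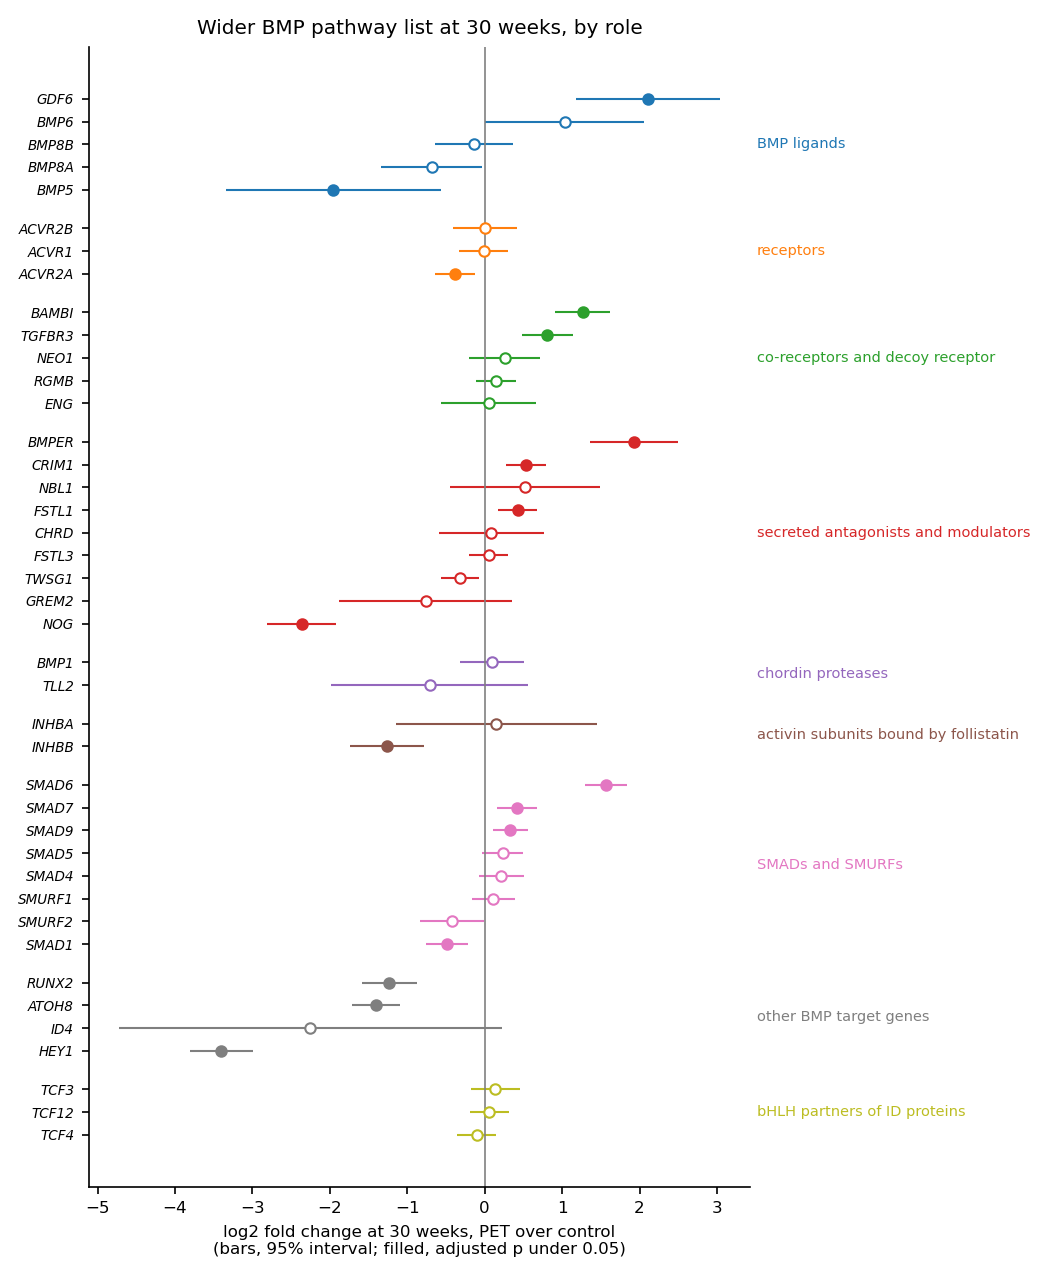
Log2 fold change of exposed over control cells at 30 weeks for 41 of the 42 tested genes of the wider list, by role, with 95% intervals and filled points for adjusted p under 0.05; TLL1, at 0 in every 30-week control, is left out. The filled points run from HEY1 at -3.40 to GDF6 at 2.11, and every role but the chordin proteases and the bHLH partners of ID proteins has at least 1.

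Among the ligands 2 of 5 tested were called (40%, beside 23.7% of all genes), in opposite directions and both weak. GDF6 had 3, 2 and 7 reads in the controls and 18, 14, 24 and 20 in the exposed cells (log2 fold change 2.11, edgeR adjusted p = 0.0021). BMP5 had 6, 16 and 20 reads in the controls and 0, 5, 6 and 4 in the exposed cells (-1.95, adjusted p = 0.0386), a call lost without any of 4 single samples: control 2, control 3, exposed 1 or exposed 4.
Of the receptors and co-receptors, TGFBR3, a co-receptor, was higher in exposed cells than in controls (log2 fold change 0.81, edgeR adjusted p = 0.00125). BAMBI, a decoy that lacks a kinase, had 7.78, 8.88 and 6.33 CPM in the controls and 16.0, 19.6, 20.8 and 17.3 CPM in the exposed cells (1.26, adjusted p = 4.21e-05). Each exposed sample thus lay well above the controls for BAMBI.

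The secreted antagonists split as the members did. NOG, which encodes noggin, had 71.7, 63.5 and 51.1 CPM in the 30-week controls and 10.8, 17.4, 12.4 and 7.46 CPM in the exposed cells. Its log2 fold change was -2.37 ± 0.21 (SE, edgeR adjusted p = 5.67e-07). BMPER, a BMP-binding modulator, went the other way, with 2.49, 3.57 and 2.15 CPM in the controls and 10.7, 15.1, 9.77 and 6.13 CPM in the exposed cells (1.93 ± 0.27, adjusted p = 7.18e-05). CRIM1, which tethers BMPs at the surface, was higher in exposed cells than in controls (0.53, edgeR adjusted p = 0.00485). With the members, 4 antagonists or modulators were higher in exposed cells (CHRDL1, BMPER, CRIM1 and FSTL1) and 2 were lower (FST and NOG). In the wider list's role of secreted antagonists and modulators 4 of 9 tested were called (44.4%, beside 23.7% of all genes).

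Among the SMADs, SMAD6, an inhibitory SMAD that is itself a BMP target, had 4.30, 4.77 and 4.65 CPM in the 30-week controls and 14.4, 12.7, 14.3 and 13.0 CPM in the exposed cells. The log2 fold change was 1.57 ± 0.13 (SE, edgeR adjusted p = 1.92e-07), with little spread in either group, and opposite in sign to the ID genes. As for ID2, the controls moved away from their 15-week level: SMAD6 averaged 27.1 CPM in the 15-week controls and 30.3 CPM in the exposed cells, and fell by 2.57 in controls and by 1.16 in exposed cells on the log2 scale (edgeR adjusted p = 6.78e-09 and 7.31e-06). At 30 weeks SMAD1 was lower, and SMAD7 and SMAD9 higher, in exposed cells than in controls, by log2 fold changes of -0.49, 0.41 and 0.33. These 3, FSTL1 (0.42) and ACVR2A (-0.38) complete the 17 called genes, and are named after their values were seen. Their calls rest on single samples: SMAD1 lost its call without control 2, SMAD7 without control 2 or exposed 1, FSTL1 without control 1 or exposed 1, and ACVR2A and SMAD9 without any of 5 of the 7 samples.

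In the list of other BMP target genes, which holds no SMAD, 3 of the 4 tested were called as lower in exposed cells at 30 weeks. That is 75%, beside 11.7% of all genes, in a list chosen with earlier results of these data known. The 3 were HEY1, ATOH8 and RUNX2, all transcription factor genes. Their direction was that of the ID genes and opposite to that of SMAD6 and SMAD7, which are BMP targets too. HEY1 had 6.62, 6.498 and 6.30 CPM in the 30-week controls and 0.688, 0.596, 0.695 and 0.458 CPM in the exposed cells, a log2 fold change of -3.40 ± 0.19 (SE, edgeR adjusted p = 4.8e-09). ATOH8 had 135, 99.7 and 111 CPM in the controls and 42.5, 36.2, 49.9 and 45.6 CPM in the exposed cells (-1.40, adjusted p = 3.53e-06). RUNX2 had 22.4, 24.2 and 25.9 CPM against 11.9, 7.60, 10.4 and 11.3 CPM (-1.23, adjusted p = 5.75e-05). From 15 to 30 weeks, across the batches, all 3 rose in controls on the log2 scale, HEY1 by 0.97 (edgeR adjusted p = 0.000951), ATOH8 by 0.57 (adjusted p = 0.0148) and RUNX2 by 1.29 (adjusted p = 0.000121). In exposed cells HEY1 (-2.38, adjusted p = 1.72e-06) and ATOH8 (-0.86, adjusted p = 0.000581) fell, and RUNX2 was not called (0.23, adjusted p = 0.354). The fourth gene, ID4, had log2 fold change -2.25 at under 0.1 CPM and was not called (adjusted p = 0.135). TCF3, TCF4 and TCF12, which encode partners of the ID proteins, had log2 fold changes of 0.13, -0.10 and 0.06 and were not called.

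**Figure D4:**
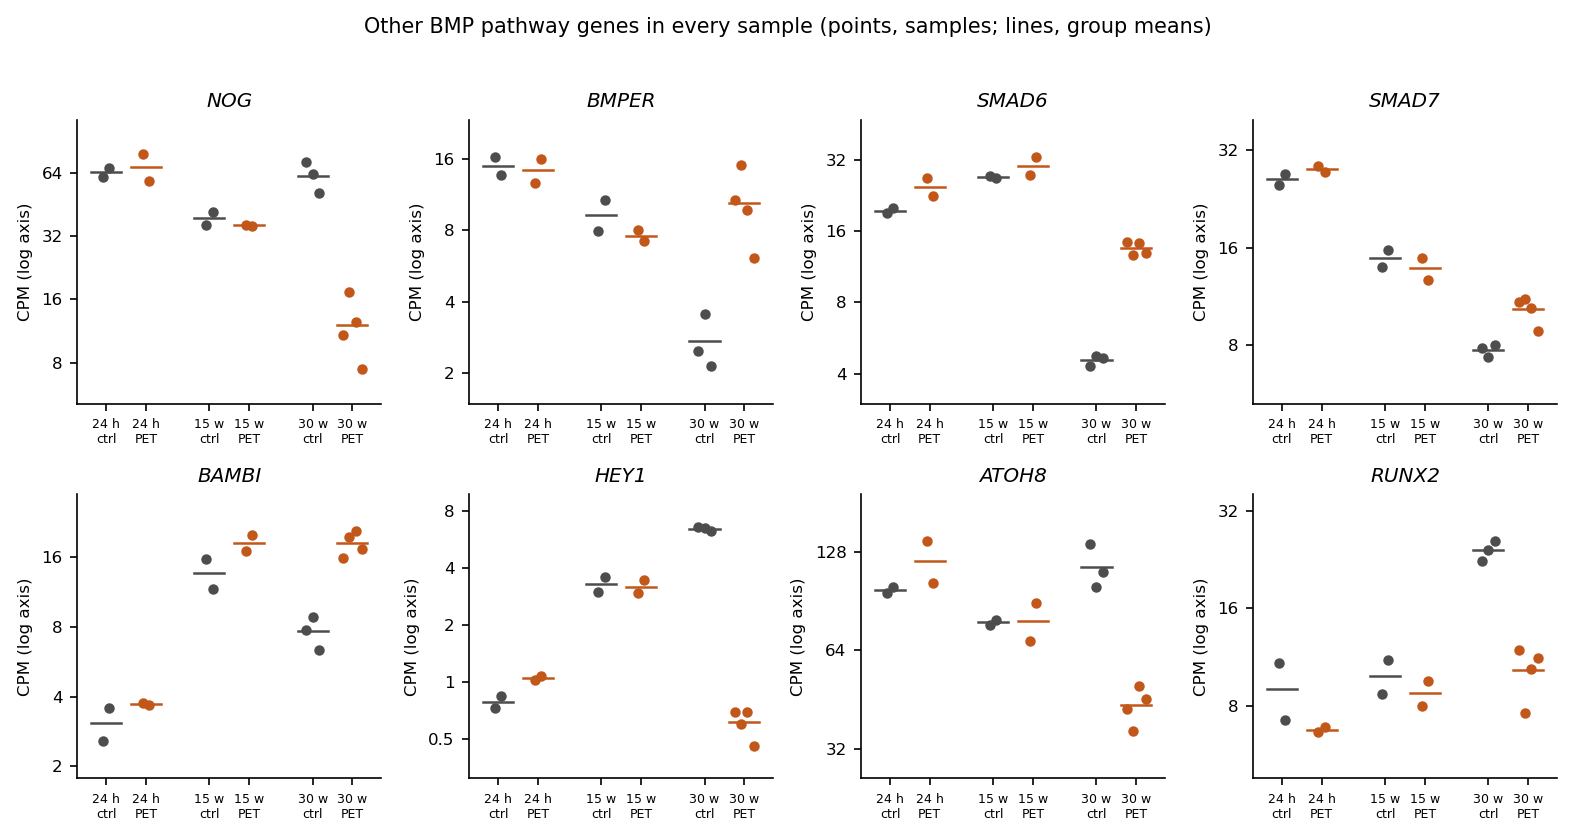
Level of 8 other pathway genes in every sample, in CPM on a log axis, with points for samples, short lines for group means, grey for controls and orange for cells exposed to PET-NPLs. At 30 weeks NOG, HEY1, ATOH8 and RUNX2 are lower and BMPER, SMAD6, SMAD7 and BAMBI higher in every exposed sample than in every control.

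For each called member the tested genes with a mean of at least 1 CPM whose log2 level was most like it over the 15 samples were listed, by the root mean square difference after centring. ID1 was nearest to ENDOD1 (0.273) and STMN3 (0.275), ID3 to GSTCD (0.211) and SLC38A4-AS1 (0.234), and ID2 to FAM24B (0.377) and MME (0.383). BMPR2 was nearest to NFIB (0.115) and USP31 (0.137), FST to KRABD2 (0.261) and FKBP11 (0.28), and CHRDL1 to TFAP2C (0.653) and SLC37A1 (0.661). No other member or gene of the wider list stood among these.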

How the data were processed

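Total RNA of 15 samples was made into stranded, ribosome-depleted libraries. The authors cleaned reads with Rfastp and used Rsubread for mapping to GRCh38 and for counting on genes (the submitters' notes name bcl2fastq, featureCounts and hg38), and the deposited values are raw counts with no normalization. Versions, strand setting and handling of multi-mapped reads are not given in the sources used here. Entrez numbers were matched to RefSeq symbols (27745 of 28395).

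In R 4.3.3, filterByExpr on the 6 conditions kept 16740 genes, and edgeR 4.0.16 (TMM scaling, glmQLFit) fitted 1 mean per condition; p-values were adjusted by Benjamini-Hochberg over all genes tested, at a threshold of 0.05. No pair of replicates agreed within sampling noise (chi-square per gene of at least 9.65). CPM are per TMM-scaled library; counting error alone is covered by the floor of 3 reads. Exon lengths came from GENCODE v44.

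The members and the gene lists were chosen with earlier results of these data known. Named genes were all members, the 12 largest changes among called genes of the wider list, and the 2 most alike genes per called member (log2 CPM with a prior count of 2). Alternatives were DESeq2 1.42.0, limma-voom (limma 3.58.1) without and with 2 surrogate variables of sva 3.50.0, each time point alone, other filters, scalings and thresholds, counts without 6 small noncoding RNAs, the replicate block, glmQLFit with its legacy option off, each sample left out and, added after seeing the data, the batch 1 samples alone. The fit was tested on simulated data. The 2-sample groups borrow their spread from all samples.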

Additional observations from a re-analysis of the deposited data

Results flagged for a closer look

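Several genes changed differently at 30 weeks than at 15 weeks by edgeR's test of the difference itself. As the change at 30 weeks minus that at 15 weeks on the log2 scale, CHRDL1 stood at 5.09 (adjusted p = 7.69e-05) and ID2 at -2.77 (adjusted p = 0.00132) among the members. In the wider list HEY1 stood at -3.35 (adjusted p = 6.31e-06), NOG at -2.25 (adjusted p = 0.000809), ATOH8 at -1.42 (adjusted p = 0.00218), RUNX2 at -1.06 (adjusted p = 0.0421) and BMP5 at -3.65 (adjusted p = 0.0404). BMPER at 2.22 (adjusted p = 0.00397) and SMAD6 at 1.41 (adjusted p = 0.000306) differed in the other direction. The 2 time points lie in different batches, and how much of each difference goes with the batch was not tested.

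In ACVR2A, exposed replicate 2 at 30 weeks, with 14.9 CPM, stood apart from the other exposed samples, at 12.1 to 12.6 CPM, by a Dixon ratio of 0.843, above the critical value for 4 samples. It was 1 of 27 genes looked at, of which BMP2 was passed over for its few reads. Chance flags about 1 in 20 of the genes tested this way.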

How the results depend on the processing

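The calls of CHRDL1, FST, ID1, ID2 and ID3 at 30 weeks kept their direction and their side of the threshold in all 18 alternatives, with log2 fold changes of 3.84 to 4.41, -1.19 to -0.92, -1.27 to -0.80, -2.77 to -2.22 and -1.03 to -0.53. BMPR2 lost its call in 7 (each time point alone, upper-quartile scaling, the replicate block and 4 samples left out). With each time point fitted alone, 3 members and 2 genes of the wider list were called at 15 weeks and 11 of the wider list at 30 weeks, beside 1.96% and 15.3% of all genes; batch 1 samples alone gave 1 of the wider list at 15 weeks (0.18% of all genes). At 30 weeks an adjusted p under 0.01 left 11 of the wider list and a fold change of at least 2 left 10. Surrogate variables raised the members whose changes at 30 and 15 weeks differed to 4, adding ID1 and ID3. From 24 h to 15 weeks in exposed cells, the fold limit left 3 members, and leaving out a sample 3 to 4. The shares of all genes were not counted for the stricter limits, the surrogate-variable difference or this last comparison.

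Signs turned only where a member was not called. BMP4 at 30 weeks became -0.012 with limma-voom, -0.0101 with upper-quartile scaling and -0.041 with the replicate block, and ranged from -0.080 to 0.17 over samples left out. CHRDL1 at 24 h became -0.045 with limma-voom and -0.12 with surrogate variables, and ranged from -0.69 to 0.52. Over samples left out, the 24 h values ranged from -0.18 to 0.079 (BMPR1A), -0.40 to 0.039 (BMPR2), -0.48 to 0.17 (FST), -0.016 to 0.56 (ID2) and -0.021 to 0.16 (ID3); FST at 15 weeks ranged from -0.26 to 0.56 and the difference for BMPR2 from -0.19 to 0.044. The causes were not tested.

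The deviations of same-numbered samples from their group means had correlations from -0.118 to 0.303. In groups of 2 the replicates deviate as mirror images, so same- and different-numbered pairs there differ only in sign. At 30 weeks different-numbered pairs ran from -0.481 to 0.359, a range that holds the same-numbered values. The correlations therefore cannot decide whether the numbers pair the samples. The replicate block kept 6 members called at 30 weeks, with GREM1 in the place of BMPR2, and 14 of the wider list, beside 19.9% of all genes. Without exposed replicate 2 the wider list had 21, while the share of all genes called rose from 23.7% to 34.2%. Depth limits BMP2, BMP5 and GDF6, which had few reads.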
